A study of Rattus norvegicus with 23 samples.

Results

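The genes described here are the Hox genes of the rat, followed across 6 regions of the heart and great vessels. A gene was taken when the symbol of its probe's RefSeq accession was Hox, a cluster letter from a to d and a number with nothing after it. This gave 25 genes, measured by 30 probes, of 16544 genes in all. Those came from the 21047 of 45596 probes that matched 1 RefSeq symbol and had no missing value. Total RNA was amplified into Cy3-labelled cRNA and hybridised to 23 single-colour arrays. The RNA came from 12 male Wistar rats of 8 to 11 weeks, with no genotype or treatment named. The groups were left atrium (LA, 4 arrays), sinoatrial node region (SA, 4 arrays), pulmonary vein (PV, 4 arrays), left ventricle (LV, 4 arrays), right ventricular free wall (RV, 3 arrays) and pulmonary artery (PA, 4 arrays). LV and RV were read together as V, as the equal-weight mean of both. The LA pieces came from tissue next to the PV, and each SA sample joined tissue of 2 rats. Each LV mass was cut into several pieces that served as samples, and the labels do not tie samples to animals, so samples of 1 region may share a heart and the p-values then measure only the spread between these samples.

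Hox genes encode homeodomain transcription factors that give cells their position along the head to tail axis of the embryo. They lie in 4 clusters, and genes at the low-numbered (3′) end are switched on earlier and further forward than those at the high-numbered (5′) end, an order known as collinearity. Genes with the same number in different clusters are paralogues. In the embryo, low-numbered Hox genes mark the second heart field and the cardiac neural crest, which contribute to the venous pole, the outflow tract and the great arteries. Retinoic acid switches on the low-numbered genes, and PBX, MEIS and PKNOX proteins of the TALE class bind DNA together with Hox proteins.

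The 25 genes were 6 of 11 in the Hoxa cluster (among them Hoxa2, Hoxa6, Hoxa7, Hoxa11 and Hoxa13), 7 of 10 in Hoxb (Hoxb3, Hoxb4, Hoxb5, Hoxb7, Hoxb8, Hoxb9 and Hoxb13), 5 of 9 in Hoxc (Hoxc4, Hoxc5, Hoxc8, Hoxc9 and Hoxc12) and 7 of 9 in Hoxd (Hoxd1, Hoxd3, Hoxd4, Hoxd9, Hoxd10, Hoxd12 and Hoxd13). The other 14 Hox genes of the RefSeq gene table were not analysed here. Signals are given as log2 of the normalized intensity plus 1, using the higher probe on each array for the 5 genes with 2 probes. The scanner software marks a spot as well above background when it clearly exceeds the local background. On that mark, 6 Hox genes were well above background on all 23 arrays (Hoxa2, Hoxa7, Hoxb4, Hoxb7, Hoxc8 and Hoxd4), 14 were so on every array of at least 1 region, 10 only on some arrays, and Hoxb13, which is known from the prostate and hindgut, on none. Hoxb13 stayed at or below 4 on every array and was not tested, which left 24 genes.

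The promoters of the genes that the results turn on are shown first, as far as the RefSeq promoter table (build GRCr8) holds them. Hoxa2 and Hoxd9 carry 2 of the largest regional differences, and Hoxd4 is shown beside them as another Hoxd gene, with regional means from 6.84 to 7.60. Each line gives the 250 bases before the annotated start, 5′ to 3′ on the gene's own strand. The capitals mark matches, on either strand, to 1 of 4 motifs. These were TGACAG (the MEIS site), TGATNNAT (a PBX and Hox site), AGGTCA (the nuclear receptor half-site read by retinoic acid receptors) and TATAAA. Hoxa2 lies at chr4:82595693-82595942 on the minus strand, Hoxd9 at chr3:80007756-80008005 and Hoxd4 at chr3:80021636-80021885, both on the plus strand.
Hoxa2: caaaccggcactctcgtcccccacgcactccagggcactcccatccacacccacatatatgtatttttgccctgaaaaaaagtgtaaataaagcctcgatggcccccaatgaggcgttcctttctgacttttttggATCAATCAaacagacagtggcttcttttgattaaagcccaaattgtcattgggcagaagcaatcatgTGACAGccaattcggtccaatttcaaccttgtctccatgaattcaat
Hoxd9: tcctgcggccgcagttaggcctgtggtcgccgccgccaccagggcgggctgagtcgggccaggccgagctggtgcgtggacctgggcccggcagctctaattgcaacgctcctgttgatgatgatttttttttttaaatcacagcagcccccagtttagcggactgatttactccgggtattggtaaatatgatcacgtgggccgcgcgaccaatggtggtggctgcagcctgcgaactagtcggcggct
Hoxd4: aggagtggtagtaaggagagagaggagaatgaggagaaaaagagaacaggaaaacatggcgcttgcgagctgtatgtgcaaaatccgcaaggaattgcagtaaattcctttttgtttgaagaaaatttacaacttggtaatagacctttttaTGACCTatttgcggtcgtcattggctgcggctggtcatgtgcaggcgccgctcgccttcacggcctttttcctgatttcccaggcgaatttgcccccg

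The Hoxa2 window held TGATNNAT, read on the opposite strand, from 114 bases before the start, and TGACAG from 47 bases before it. The Hoxd4 window held AGGTCA on the opposite strand from 98 bases before the start, and the Hoxd9 window held none of the 4. No matches overlapped. Over 33465 promoter windows of this length, 15.8% held TGACAG, 7.96% TGATNNAT, 14.1% AGGTCA and 12.9% TATAAA. Of the 13 Hox promoters in the table, 1 held TGACAG and 1 TGATNNAT (Hoxa2 both times), 3 held AGGTCA (Hoxc4, Hoxd4 and Hoxd10) and 1 held TATAAA (Hoxd13). A match describes these letters and is no measured binding site.

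Marker genes were checked against the region labels. Irx4, a ventricular transcription factor, was 12.21 to 12.62 in V and at most 4.25 in SA, where no array was well above background. Shox2, a pacemaker transcription factor, was 11.40 ± 0.11 (SD, n = 4) in SA and 11.04 ± 0.11 in PV, against 7.90 ± 0.28 in LA. The summed signal of 6 smooth muscle markers was 19.4 to 19.7 in PA on the log2 scale, and all 6 were well above background on every PA array. The 23 arrays lay on 3 slides and in 2 rows per slide, and fewer genes were detected in row 2. Row 1 (11 arrays) had 17 to 22 Hox genes well above background per array, and row 2 (12 arrays) had 9 to 18. Row 1 held 3 LA arrays, 1 SA, 1 PV, 2 LV, 2 RV and 2 PA. No spot was saturated.

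**Figure D1:**
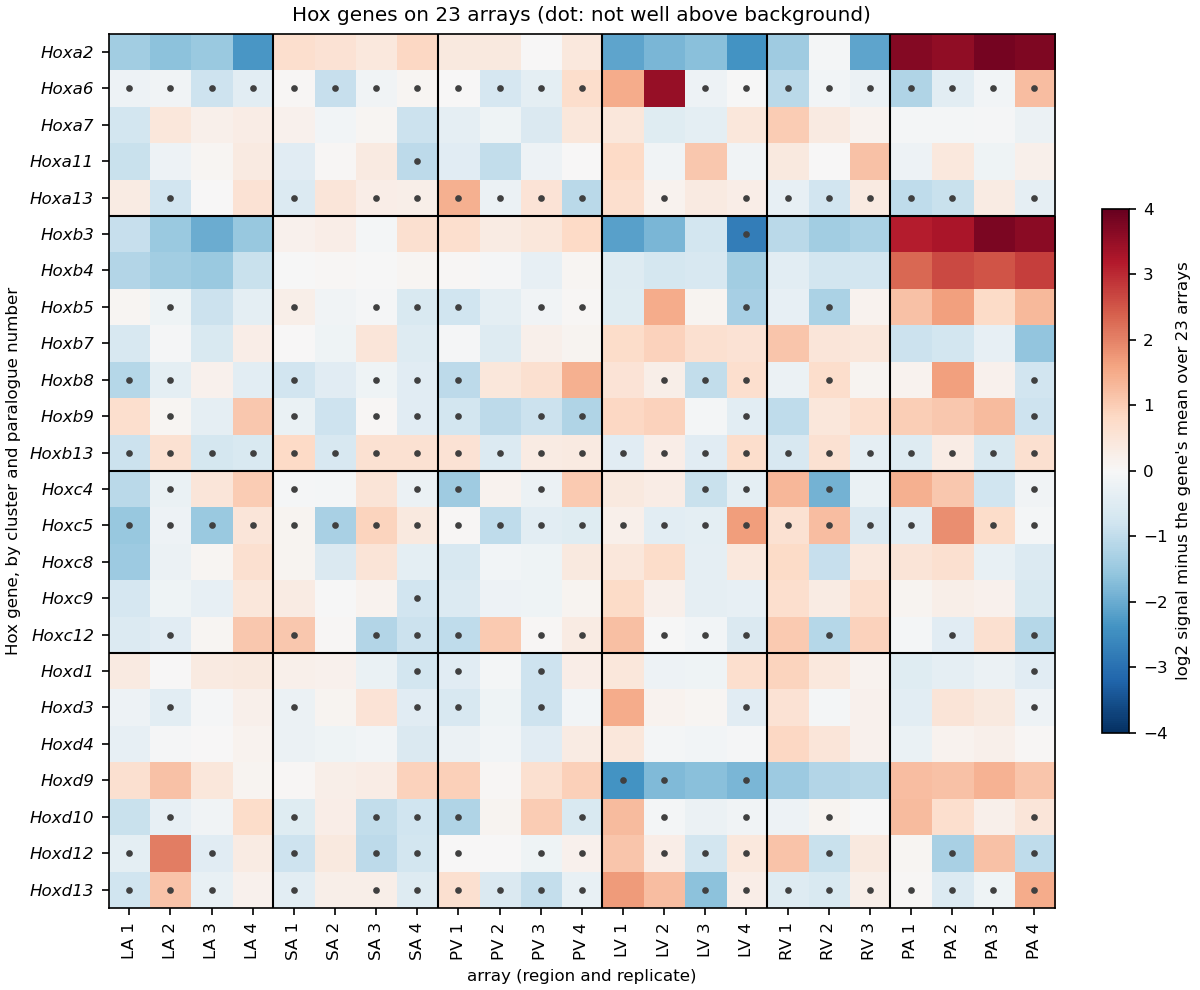
Each column is 1 of the 23 arrays and each row 1 of the Hox genes described, ordered by cluster and number; colour gives the log2 signal minus the gene's own mean over all arrays, and a dot marks a spot not well above background. The 4 PA columns stand out for Hoxa2, Hoxb3 and Hoxb4, and the 7 V columns are low for Hoxd9.

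The first comparison asked which Hox genes differ among the 6 regions. The regional differences passed in 9 of 24 Hox genes and were large in 4 of them: Hoxb4, a gene of the hindbrain and of blood stem cells (adjusted p = 1.56e-12), Hoxa2, which patterns the second pharyngeal arch (adjusted p = 1.06e-11), Hoxb3, a hindbrain and pharyngeal gene (adjusted p = 6.35e-11), and Hoxd9, a gene of the lower spine and limb (adjusted p = 2.22e-09). Hoxb7, a trunk gene, followed (adjusted p = 0.000269). Hoxb5, Hoxd4, Hoxd1 and Hoxb9 passed with adjusted p of 0.0186, 0.0365, 0.0386 and 0.0416. With the array row as a block 6 genes passed, and Hoxd4, Hoxd1 and Hoxb9 did not (adjusted p = 0.0615, 0.0781 and 0.0747). In limma's F-test over all genes, 9 of 24 Hox genes passed an adjusted p of 0.05, or 37.5%, whereas 64.4% of the 16089 genes tested did.

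PA was set against the mean of the other 5 regions. Hoxa2, Hoxb3 and Hoxb4 were higher in PA than on any other array, and exceeded the mean of the other regions by 22.6, 18.4 and 8.54-fold. Normexp background correction, an alternative that fits the background of each array and pulls dim genes together, gave log2 differences of 3.83, 3.19 and 2.73 for these 3 genes, beside the 4.50, 4.20 and 3.09 given for them here. Of 24 genes, 7 passed, 5 higher and 2 lower; over all genes 59.1% passed, 31.4% higher in PA and 27.7% lower. The median difference of the 24 Hox genes was 0.17, beside 0.05 for all genes. In bulk tissue such as this, fewer cells of a type and less RNA per cell cannot be told apart.

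Hoxa2 read 12.05, 11.92, 12.20 and 12.10 in the 4 PA samples. It read 9.03, 8.93, 8.78 and 9.19 in SA and 8.77, 8.75, 8.39 and 8.78 in PV. In LA it read 6.99, 6.71, 6.87 and 6.04. PA was apart from every other region, SA and PV formed a middle level with no overlap with LA, and V lay near LA. The V values were 6.27, 6.53, 6.71 and 5.97 in LV and 6.95, 8.28 and 6.26 in RV, of which RV replicate 2 was the exception taken up with the Hoxa2 probes. PA exceeded the other 5 regions by 4.50 (SE 0.23, adjusted p = 9.95e-13).

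Hoxb3 was also highest in PA, with PV and SA between PA and LA. Its PA values were 10.67, 10.79, 11.28 and 11.13, its PV values 8.20, 7.86, 7.99 and 8.32 and its SA values 7.71, 7.78, 7.44 and 8.16. Its LA values were 6.61, 6.03, 5.53 and 6.01. No array of PV or SA fell to the LA level, and the PV and SA values overlapped. LV held 5.34, 5.70, 6.78 and 4.77, the last of these not well above background, and RV held 6.46, 6.13 and 6.27. PA was higher by 4.20 (SE 0.24, adjusted p = 5.39e-12).

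Hoxb4, the 5′ neighbour of Hoxb3, was well above background on every array. It read 11.10, 11.45, 11.33 and 11.59 in PA. It read 8.79, 8.86, 8.80 and 8.89 in SA and 8.86, 8.78, 8.50 and 8.88 in PV. The 4 SA values hardly differed, and each PA array lay above all of them. LA was lowest with 7.63, 7.43, 7.33 and 7.92, while LV gave 8.29, 8.12, 8.18 and 7.43 and RV 8.41, 8.08 and 8.08. PA was higher by 3.09 (SE 0.13, adjusted p = 4.24e-14).

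The other PA differences were smaller and overlapped with arrays of other regions. Hoxd9 was 8.26 ± 0.12 (SD, n = 4) in PA, with values of 8.27, 8.21, 8.42 and 8.15, and was higher by 1.52 (SE 0.18, adjusted p = 4.8e-07). Its means were 7.65 in LA, 7.43 in SA and 7.69 in PV, but 5.13 in LV and 5.80 in RV. The low V level is thus part of this difference. Hoxb5, a gene of vagal neural crest, read 6.17, 6.66, 5.77 and 6.30 in PA, all well above background, against 10 of 19 arrays so marked in the other regions. Its difference was 1.48 (SE 0.33, adjusted p = 0.000687), and LV replicate 2 at 6.50 lay inside the PA range. Hoxb7 was lower in PA by 1.08 (SE 0.21, adjusted p = 0.000138), with PA values of 6.78, 6.91, 7.30 and 6.05. Here the high V level is part of the difference, with means of 8.36 in LV and 8.33 in RV, against 7.37 in LA, 7.60 in SA and 7.57 in PV. Hoxd1, a low-numbered gene known from pain-sensing neurons, was lower by 0.48 (SE 0.19, adjusted p = 0.0402), and this call was lost in 11 of 23 runs that left out 1 array, with an adjusted p up to 0.103 (without PA replicate 1), and with the slide as a block (adjusted p = 0.0517). Normexp background correction gave smaller differences of 0.95 for Hoxd9, 0.48 for Hoxb5 and -0.62 for Hoxb7, which passed, and of -0.17 for Hoxd1 (adjusted p = 0.147). Cell markers differed in PA as well, in both directions. All 6 smooth muscle markers were higher, and of 6 fibroblast markers 4 were higher and 1 lower. The summed smooth muscle signal of 19.4 to 19.7 compared with 16.2 to 16.8 in PV, 15.6 to 16.2 in SA and 14.7 to 15.0 in LA, and that of 6 fibroblast markers was 18.8 to 18.9 in PA and 16.8 to 17.7 in LA. Of 6 atrial myocyte markers 5 were lower, as were all 5 ventricular ones, with summed signals of 11.7 to 15.3 and 12.2 to 14.7 in PA against 20.4 to 20.7 in LA and 20.2 to 20.5 in LV. Of 5 endothelial markers 4 were lower, of 6 Schwann cell markers 4 were lower and 1 higher, of 5 pacemaker markers 3 were lower and 1 higher, and of 5 adipocyte markers 3 were higher and 2 lower. Of 4 macrophage markers 2 were higher, of 3 lymphocyte markers 2 were lower, and of the 5 each for mesothelium, autonomic neurons and lung epithelium 1 or 2 passed. The part of cell makeup in these Hox differences was not tested.

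**Figure D2:**
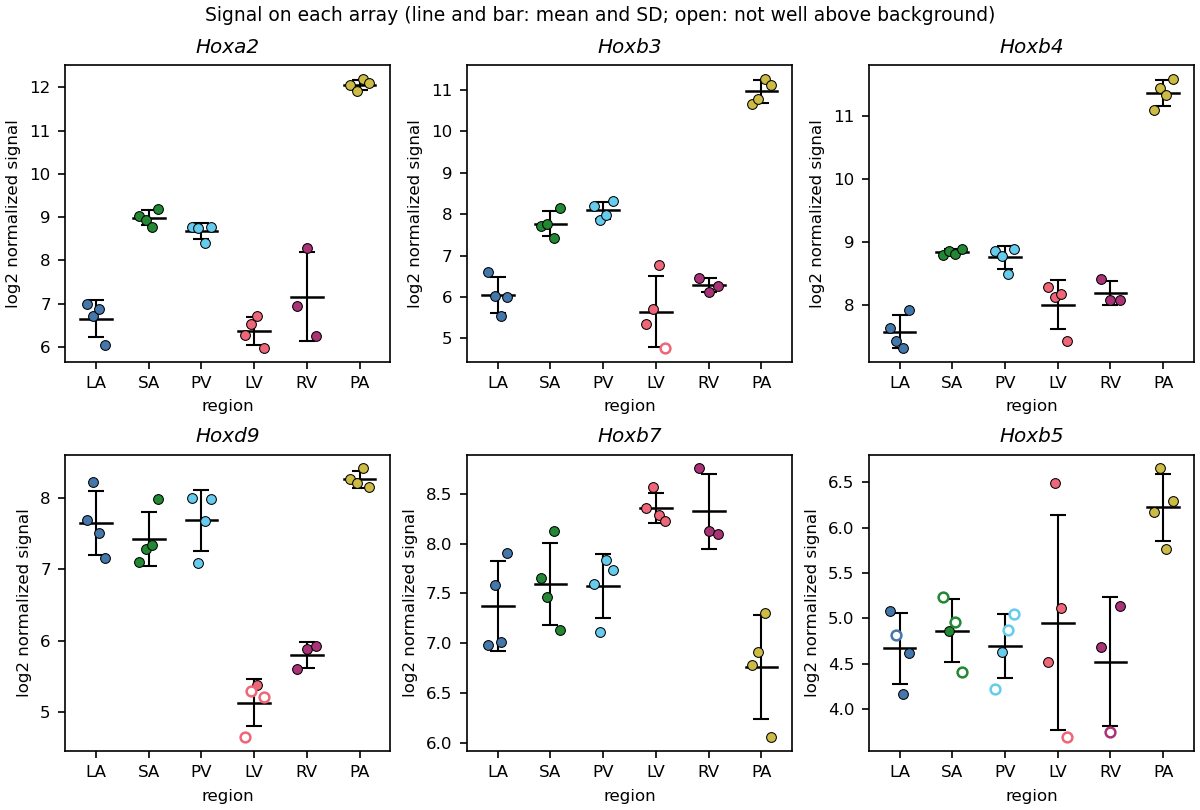
Each point is 1 array, by region on the x axis, with the log2 normalized signal on the y axis (axes do not start at 0); the line and bar give the mean and SD, and open points were not well above background. Hoxa2, Hoxb3 and Hoxb4 are highest in PA, intermediate in SA and PV and lowest in LA and V, Hoxd9 separates V from the rest, and Hoxb7 is highest in V.

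SA, which holds the pacemaker tissue, was compared with V, the working ventricular muscle. Hoxa2, Hoxd9, Hoxb3 and Hoxb4 were higher in SA, and Hoxb7 and Hoxd4 were higher in V. Of 24 genes 6 passed, 4 higher and 2 lower in SA; over all genes 28.1% passed, 12.3% higher and 15.8% lower. The Hox median was −0.36, beside −0.06 for all genes. Hoxa2 was 4.65-fold higher in SA (2.22, SE 0.26, adjusted p = 2.34e-06), a difference that was 1.56 with normexp background correction. Hoxd9 differed by 1.96 (SE 0.21, adjusted p = 7.18e-07). Hoxb3 differed by 1.80 (SE 0.27, adjusted p = 4.16e-05), and Hoxb4 by 0.74 (SE 0.15, adjusted p = 0.000741). The 4 genes had no overlap between SA and V. Hoxd4, a gene of the neck vertebrae that responds to retinoic acid, was lower in SA by 0.55 (SE 0.16, adjusted p = 0.0135), also without overlap, and did not pass without SA replicate 4 (adjusted p = 0.0674) or with normexp, where it differed by -0.30 (adjusted p = 0.101). Hoxb7 was lower by 0.75 (SE 0.24, adjusted p = 0.0232), with overlap, and did not pass without SA replicate 4, SA replicate 2 or RV replicate 1 (adjusted p = 0.106, 0.0627 and 0.0621), nor with the slide as a block (adjusted p = 0.0523). With normexp the differences of Hoxb3 and Hoxb7 were 1.0005 and -0.45, and both passed.

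Hoxd9 drew the line between V and all other regions. Its LV values were 4.64, 5.29, 5.38 and 5.21, of which only replicate 3 was well above background, and its RV values were 5.60, 5.88 and 5.93. LA held 7.70, 8.23, 7.51 and 7.16, SA 7.10, 7.28, 7.34 and 7.98 and PV 8.01, 7.09, 7.67 and 7.99. Every array of LA, SA, PV and PA lay above every V array, and the LA, SA and PV values overlapped with each other. With 4 of 7 V arrays well above background, the size of the Hoxd9 difference is uncertain. Normexp background correction gave 0.97 for SA against V and 1.12 for PV against V, which still passed. The nearest measured members on either side gave negative differences: Hoxd10, a gene of the lumbar cord, differed between SA and V by -0.59 (adjusted p = 0.309) and Hoxd4 by the -0.55 given above.

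PV and V were compared in the same way, against the same 7 V arrays. Hoxd9, Hoxb3, Hoxa2 and Hoxb4 were higher in PV, and Hoxb7, Hoxb9, Hoxa11 and Hoxd1 were lower. Of 24 genes 8 passed, 4 in each direction; over all genes 33.9% passed, 15.6% higher and 18.3% lower, and the Hox median was −0.34 beside −0.09. Hoxd9 was higher in PV by 2.22 (SE 0.21, adjusted p = 1.07e-07), Hoxb3 by 2.12 (SE 0.27, adjusted p = 4.98e-06), Hoxa2 by 1.90 (SE 0.26, adjusted p = 1.18e-05) and Hoxb4 by 0.66 (SE 0.15, adjusted p = 0.00172). Hoxb7 was lower in PV by 0.77 (SE 0.24, adjusted p = 0.0168) and did not pass without PV replicate 2 (adjusted p = 0.0787). No array overlapped between PV and V for these 5, and the share of all genes without overlap was not counted. Hoxb9, a thoracic gene, was lower by 1.14 (SE 0.40, adjusted p = 0.0339), though only 1 of 4 PV arrays was well above background. Hoxa11, known from the limb and uterus, was lower by 0.87 (SE 0.32, adjusted p = 0.042), and Hoxd1 by 0.60 (SE 0.22, adjusted p = 0.0426). The calls of Hoxb9, Hoxa11 and Hoxd1 were lost in 7, 7 and 8 of 23 runs that left out 1 array, with adjusted p up to 0.0873 for Hoxb9 (without PV replicate 4), 0.157 for Hoxa11 (without PV replicate 2) and 0.175 for Hoxd1 (without PV replicate 3). The count of 8 fell to 4 without PV replicate 2 and to 5 without PV replicate 3 or LV replicate 1. It was also 5 with normexp background correction and with the array row as a block, where these 3 genes did not pass. Normexp gave -0.30 for Hoxb9, -0.45 for Hoxa11 and -0.22 for Hoxd1, and 1.21 for Hoxb3, which passed. Within 1 of the 3 slides Hoxd1 differed by 0.03 in the other direction.

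LA and V differed in fewer Hox genes. Hoxd9 was higher in LA by 2.18 (SE 0.21, adjusted p = 1.22e-07), and by 1.002 with normexp background correction. Hoxb7 was lower in LA by 0.97 (SE 0.24, adjusted p = 0.00311), with 6.98, 7.59, 7.01 and 7.91 in LA, 8.36, 8.57, 8.29 and 8.22 in LV and 8.76, 8.13 and 8.09 in RV. The LA and V values of these 2 genes did not overlap. Hoxb4 was lower in LA by 0.52 (SE 0.15, adjusted p = 0.00941), with LV replicate 4 at 7.43 inside the LA range, and did not pass in a fit of only the arrays compared (adjusted p = 0.0509). Hoxa2 and Hoxb3 differed by -0.11 (95% interval -0.66 to 0.44) and 0.08 (-0.49 to 0.65) and did not pass. Of 24 genes 3 passed, 1 higher and 2 lower; over all genes 35.4% passed, 16.9% higher and 18.4% lower, and the Hox median was −0.22 beside −0.09. With normexp background correction 10 Hox genes passed, these 3 among them, and the 7 added were all lower in LA. Over all genes 6983 of 16544 passed with normexp, and the median difference of all genes moved to -0.19.

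Cell markers differed in the comparisons with V as well. Of 6 atrial myocyte markers 4 were higher in each of SA, PV and LA, with medians of 4.51, 4.31 and 4.42. Of 5 ventricular myocyte markers 4 were lower in each, with medians of -5.38, -4.48 and -4.74. Of 6 smooth muscle markers 5 were higher in SA and 5 in PV than in V, and 4 were lower in LA. Of 6 Schwann cell markers 4 were higher in SA, 6 in PV and 2 in LA, where 1 was lower. Of 5 mesothelium markers 4 were higher and 1 lower in SA, 3 were higher and 1 lower in PV, and 4 were higher in LA, with a median of 3.54 in LA. Of 5 pacemaker markers 3 were higher in SA and 3 in PV, while in LA 1 was higher and 2 were lower. Of 5 endothelial markers 3 were lower in SA, 3 in PV and 2 in LA. Of 6 fibroblast markers 3 were higher and 3 lower in SA, 3 were higher in PV and 1 in LA. Of 5 adipocyte markers 3 were higher and 1 lower in SA, 4 were higher in PV, and 2 were higher and 1 lower in LA. Both measured erythroid markers were higher in all 3. Of 4 macrophage markers 3 were lower in SA, 2 in PV and 2 in LA, and of 5 lung epithelium markers 2 were lower in SA, 4 in PV and 2 in LA. Of 3 lymphocyte markers 1 was lower in each, and of 5 autonomic neuron markers 1 was higher in SA and 1 in PV. The part of these cells in the Hoxd9 and other differences from V was not tested.

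The array values of the smaller differences not given so far follow. Hoxb7 read 7.65, 7.47, 8.13 and 7.13 in SA and 7.60, 7.11, 7.84 and 7.74 in PV, between most PA and V arrays. Hoxb5 read 5.08, 4.82, 4.16 and 4.62 in LA, 5.24, 4.86, 4.96 and 4.41 in SA and 4.22, 4.63, 4.88 and 5.05 in PV. It read 4.52, 6.50, 5.12 and 3.69 in LV and 4.68, 3.74 and 5.14 in RV, and of these heart arrays LV replicate 2 alone reached the PA values. Hoxd4 read 6.89, 6.93, 6.99 and 6.54 in SA, 7.57, 7.03, 7.02 and 7.07 in LV and 7.93, 7.59 and 7.27 in RV. It read 6.78, 7.07, 7.12 and 7.25 in LA, 6.67 to 7.43 in PV and 6.85, 7.26, 7.33 and 7.15 in PA. LA, PV and PA overlapped with V for Hoxd4. Hoxd1 read 5.47, 5.61, 5.73 and 5.50 in PA, 5.50, 5.87, 5.14 and 6.22 in PV and 6.17, 6.12, 5.70 and 5.21 in SA. It read 6.32, 5.96, 6.31 and 6.35 in LA, 6.41, 5.74, 5.78 and 6.62 in LV and 6.84, 6.38 and 6.09 in RV. The PA values of Hoxd1 were low and close together, and overlapped with PV and SA. Hoxb9 read 4.73, 4.43, 4.63 and 4.27 in PV, 5.21, 4.66, 5.54 and 5.01 in SA and 6.14, 5.56, 5.12 and 6.55 in LA. It read 6.31, 6.39, 5.40 and 5.06 in LV, 4.47, 5.94 and 6.16 in RV and 6.45, 6.54, 6.74 and 4.65 in PA. Hoxb9 was low in PV, and RV replicate 1 alone among the V arrays lay inside the PV range.

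SA and PV were then each compared with LA, the working atrial muscle. In both, Hoxa2, Hoxb3 and Hoxb4 were higher, and no other Hox gene passed. Closest to the threshold was Hoxb9 in PV, with a difference from LA of -1.33 (SE 0.45, adjusted p = 0.0594) and no overlap. It passed with quantile normalization, with the filter on background, with the slide as a block and with only the arrays compared (adjusted p = 0.0382, 0.0457, 0.0288 and 0.0379), and not in the other settings that kept all arrays, where normexp gave a difference of -0.17. From LA to SA, Hoxa2 was higher by 2.33 (SE 0.30, adjusted p = 3.35e-05), Hoxb3 by 1.72 (SE 0.31, adjusted p = 0.000771) and Hoxb4 by 1.26 (SE 0.17, adjusted p = 4.97e-05). From LA to PV, Hoxb3 was higher by 2.05 (SE 0.31, adjusted p = 0.000164), Hoxa2 by 2.02 (SE 0.30, adjusted p = 0.000134) and Hoxb4 by 1.18 (SE 0.17, adjusted p = 9.76e-05). No array overlapped for any of the 3 genes in either comparison, and both comparisons used the same 4 LA arrays. Thus 3 of 24 passed for SA, where 15.3% of all genes did, 7.03% higher and 8.26% lower, and 3 of 24 for PV, where 13.5% did, 6.99% higher and 6.51% lower. The Hox medians were 0.033 and 0.004, beside 0.007 and −0.034 for all genes. With normexp background correction, 5 Hox genes passed for SA against LA, where 4169 of all 16544 genes did and the median of all genes was 0.17. Hoxb3 then differed by 1.15 in SA and 1.36 in PV and passed in both. Hoxd9 differed from LA by -0.22 in SA (95% interval -0.72 to 0.28) and 0.04 in PV (-0.46 to 0.54).

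Markers of other cells also differed between these regions and LA, in both directions. Of 6 smooth muscle markers 5 were higher in SA and 5 in PV, with list medians of 2.57 and 3.57. Their summed signals were 15.6 to 16.2 in SA and 16.2 to 16.8 in PV, without overlap with the 14.7 to 15.0 of LA. Of 5 mesothelium markers, which mark the outer lining of the heart, all 5 were lower in SA and in PV, with medians of -1.66 and -1.80. Their sums were 14.5 to 14.8 in LA, 12.5 to 13.4 in SA and 11.9 to 13.3 in PV. Of 5 measured pacemaker markers, Shox2 among them, 4 were higher in SA and 4 in PV, with medians of 2.14 and 1.44 and sums of 12.5 to 12.7 in SA, 11.8 to 12.1 in PV and 10.2 to 10.7 in LA. Of 6 Schwann cell markers 1 was higher in SA and 5 in PV, and their sums were 12.8 to 12.9 in SA, 13.6 to 14.1 in PV and 11.9 to 12.5 in LA. Of 6 fibroblast markers 3 were higher and 2 lower in SA, and 3 were higher in PV, with sums of 17.2 to 18.1 in SA and 18.1 to 18.6 in PV that overlapped with LA in SA alone. Of 5 adipocyte markers 1 was higher in SA and 2 in PV. Ucp1, the marker of brown fat, was higher in both and read 11.15 to 13.60 in SA, 8.16 to 12.42 in PV and 3.86 to 7.35 in LA. Adipoq, a fat cell hormone, passed in PV alone, and the sums of the 5 overlapped between SA and LA and between PV and LA. Of 2 measured erythroid markers 1 was higher in each. Of 5 ventricular myocyte markers 2 were lower in SA and 1 in PV, and in each region 1 endothelial and 1 lymphocyte marker was lower and 1 autonomic neuron marker higher. No atrial myocyte, lung epithelium or macrophage marker passed in either. The part of these cells in the Hoxa2, Hoxb3 and Hoxb4 differences was not tested.

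No Hox gene passed between PV and SA. Of 24 genes, 0 passed in limma's test, where 3.49% of all genes did, 2.71% higher in PV and 0.783% lower. None of the 24 had an unadjusted p below 0.05, where 2557 of the 16089 genes tested did. PV minus SA was -0.31 for Hoxa2 (95% interval -0.93 to 0.31), 0.32 for Hoxb3 (-0.32 to 0.96), -0.08 for Hoxb4 (-0.43 to 0.27) and 0.26 for Hoxd9 (-0.24 to 0.76). LV and RV also gave 0 of 24, beside 0.522% of all genes. Here 4 of 24 Hox genes had an unadjusted p below 0.05, where 1727 of the 16089 genes tested did. LV minus RV was -0.67 for Hoxd9 (-1.21 to -0.13, adjusted p = 0.311) with no overlap, -0.79 for Hoxa2 (adjusted p = 0.349), -0.43 for Hoxd4 (adjusted p = 0.427) and 1.65 for Hoxa6 (adjusted p = 0.354). The Hoxa2 value rested on RV replicate 2, and on probe A_44_P1359563 alone LV minus RV was -0.16 (unadjusted p = 0.471). The Hoxa6 value rested on LV replicates 1 and 2, at 5.04 and 7.04, the only arrays on which Hoxa6 was well above background.

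Read by position, 3 of the 5 genes higher in PA had paralogue numbers of 4 or less, as had 8 of the 24 genes tested. Of the 8 genes with paralogue numbers 1 to 4, 3 were higher and 1 lower in PA, with a median difference of 0.45; over all genes 31.4% were higher and 27.7% lower. These counts are near the shares over all genes and are given as a description. Of the 7 genes numbered 5 to 8, 1 was higher and 1 lower, with a median of 0.09. Of the 10 genes numbered 9 to 13, of which 9 were tested, Hoxd9 was higher and none lower, with a median of 0.05. The low V values of Hoxd9 are part of the mean it was set against. In Hoxb the PA difference fell along the cluster from 4.20 for Hoxb3 and 3.09 for Hoxb4 to 1.48 for Hoxb5 and -1.08 for Hoxb7, and read 0.34 for Hoxb8 and 0.74 for Hoxb9, which did not pass. In Hoxa it was 4.50 for Hoxa2, -0.12 for Hoxa6, -0.16 for Hoxa7, 0.05 for Hoxa11 and -0.56 for Hoxa13, of which Hoxa2 alone passed. The paralogues of Hoxb3 and Hoxb4 in the other clusters did not pass: Hoxd3 differed by 0.07 (95% interval -0.47 to 0.61), Hoxd4 by 0.02 (-0.27 to 0.31) and Hoxc4 by 0.48 (-0.57 to 1.53). Hoxb9, the paralogue of Hoxd9, differed by 0.74 (0.00 to 1.48) and Hoxc9 by -0.05 (-0.51 to 0.42). No gene of the Hoxc cluster passed in any of the 8 contrasts.

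**Figure D3:**
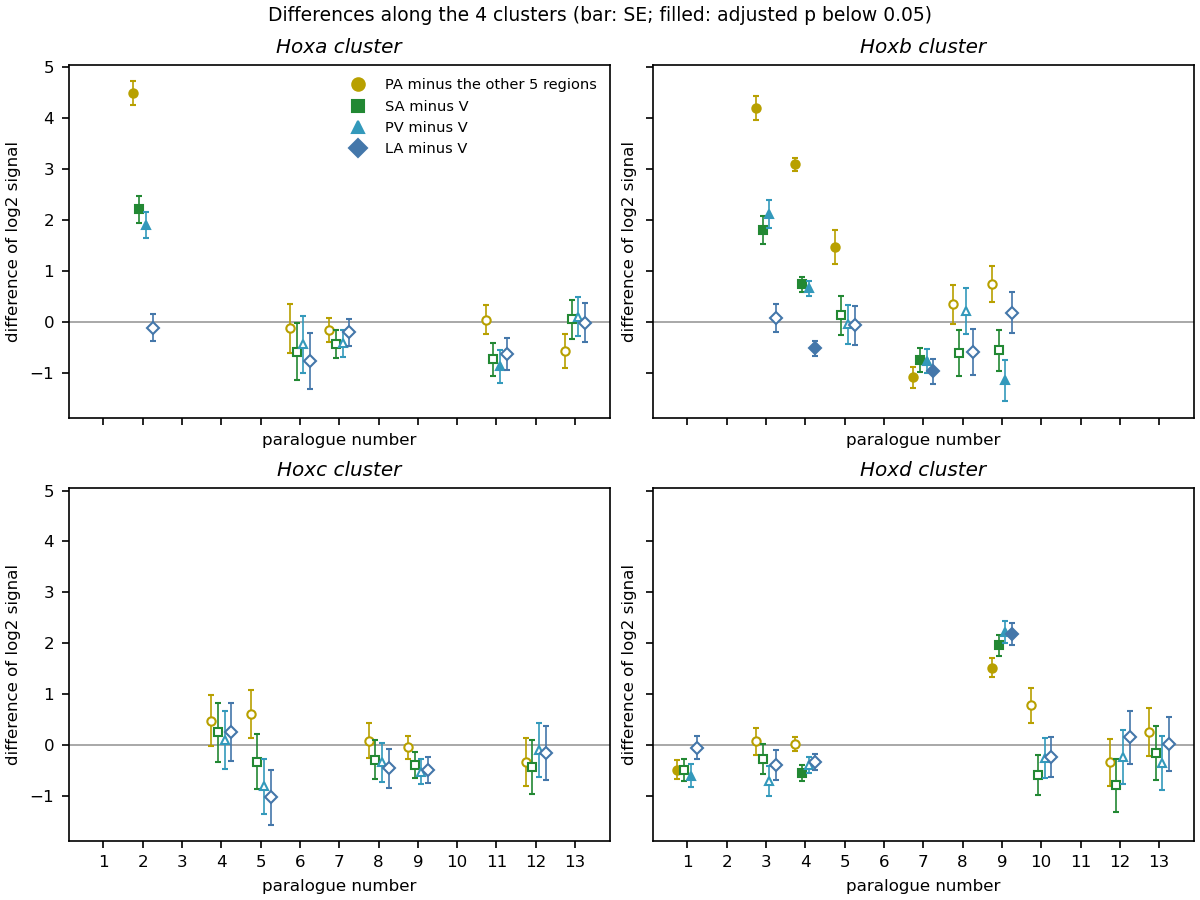
Each panel is 1 cluster, with the paralogue number on the x axis and the difference of log2 signal on the y axis; symbols mark 4 comparisons, bars give the SE, and filled symbols passed an adjusted p of 0.05. The filled symbols furthest above 0 are at Hoxa2, Hoxb3, Hoxb4, Hoxb5 and Hoxd9, and the Hoxc panel holds none.

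Several genes that did not pass the F-test were well above background on nearly every array. They were named after their values were seen. Hoxc8, a gene of brachial motor neurons and the thorax, had region means from 7.64 to 8.20 and was well above background on all 23 arrays. Hoxa7, a trunk gene, had means from 6.80 to 7.48 on all 23 arrays. Hoxc9, a thoracic gene, ranged from 6.22 to 6.98, and Hoxa11 from 6.04 to 6.98, each well above background on 22 arrays. Their spread within a region could be as large as that between regions, as in Hoxc8 in LA with 6.43, 7.64, 7.96 and 8.52. Hoxd3 was well above background on 16 arrays, Hoxc4 on 14, Hoxd10 on 13, Hoxb8 on 12 and Hoxc12 on 10. Hoxd12 was so on 9, Hoxa13 on 7, Hoxd13 on 4, Hoxa6 on 2 and Hoxc5 on 1, so most values of these 5 genes lie at background.

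Hoxa2 has 2 probes, and 1 array stood apart on only 1 of them. Probe A_44_P1359563, the higher on 22 of 23 arrays, read 6.38 in RV replicate 2, within the 5.97 to 6.95 of the other 6 V arrays. Probe A_44_P1010087 read 8.28 there, while the other V arrays gave 2.68 to 4.95. The RV replicate 2 level of Hoxa2 therefore comes from 1 probe, and RV was 6.53 ± 0.37 (SD, n = 3) on probe A_44_P1359563, beside 7.16 ± 1.03 with the higher probe per array. Both probes were highest in PA, then in SA and PV, and lower in LA and V, with PA means of 12.07 and 10.35, SA means of 8.98 and 7.39 and LA means of 6.65 and 4.45. Hoxb3 also has 2 probes. One of them gave every Hoxb3 value above, and the other was well above background on only 3 arrays, with a PA mean of 4.88 and region means from 3.55 to 3.64 elsewhere. The 2 probes are assigned to different transcripts. On the dim probe PA was higher by 1.27 (adjusted p = 0.000765 in limma's test). There SA and PV differed from LA by -0.02 and -0.03 and from V by 0.03 and 0.02, and did not pass.

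**Figure D4:**
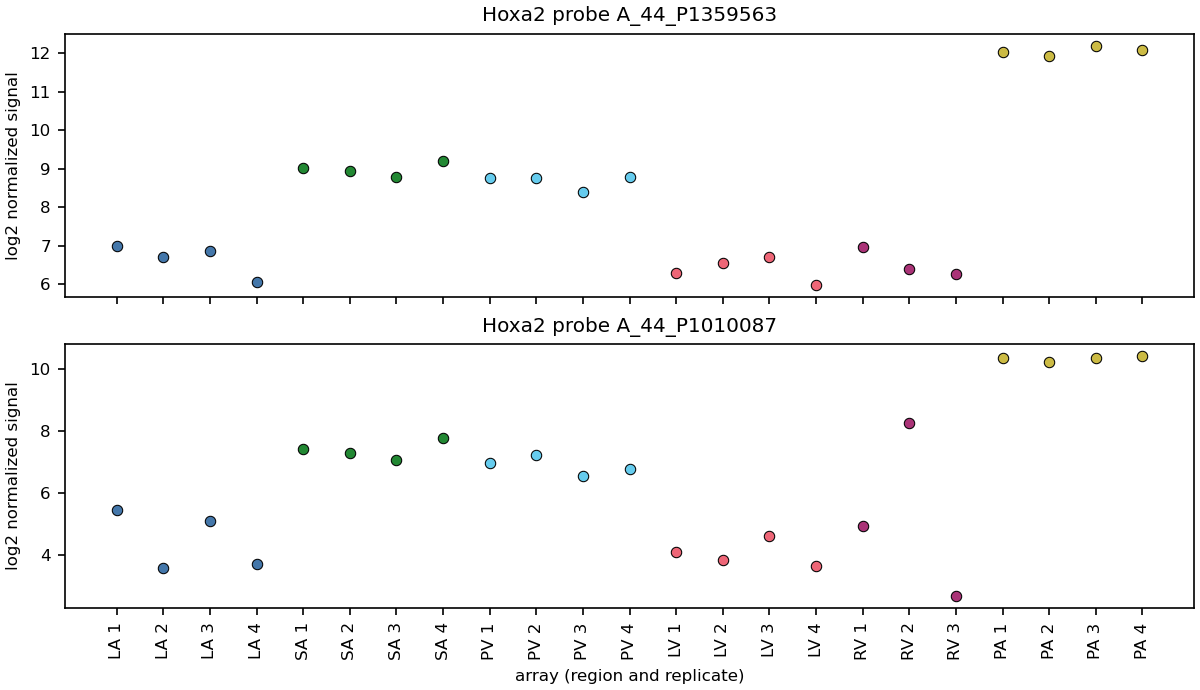
Each panel is 1 Hoxa2 probe, with the 23 arrays on the x axis, coloured by region, and the log2 normalized signal on the y axis; the panels have different scales. RV 2 lies at 8.28 in the lower panel, above the other ventricular arrays, and at 6.38 among them in the upper panel.

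Genes that work with Hox proteins or on Hox clusters were counted as lists. Of 8 measured TALE cofactors, 7 differed among the regions, and in PA 5 were higher and 1 lower, with a list median of 0.52 beside 0.05 for all genes. Over all genes 64.4% differed, 31.4% were higher in PA and 27.7% lower, which holds for each list that follows. Meis3 was higher in PA by 2.31 (SE 0.12, adjusted p = 7.57e-13) and also in SA and PV against LA, by 0.59 and 0.89 (adjusted p = 0.0105 and 0.000472). Its region means were 9.61 ± 0.16 in PA, 7.87 ± 0.06 in PV, 7.58 ± 0.28 in SA and 6.98 ± 0.15 in LA (SD, n = 4 each). Meis1 was higher in PA by 1.79 (SE 0.09, adjusted p = 3.05e-13) but lower in SA than in LA by 0.43 (adjusted p = 0.0114), a call lost with normexp (adjusted p = 0.0737). Pbx3 was higher than in V by 2.03 in LA, 1.59 in SA and 1.16 in PV (adjusted p = 2.98e-10, 1.16e-08 and 6.2e-07). Against V, 2 cofactors were higher and 1 lower in each of SA, PV and LA, where 12.3%, 15.6% and 16.9% of all genes were higher and 15.8%, 18.3% and 18.4% lower.

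Of 17 measured retinoic acid genes, 14 differed, with 8 higher and 5 lower in PA and a list median of 0.62. The receptor genes Rxrg and Rxra were lower in PA by 5.78 (SE 0.10, adjusted p = 1.21e-19) and 2.72 (SE 0.11, adjusted p = 2.23e-14). Rdh10, which makes retinaldehyde from retinol, was higher in SA than in V by 2.19 (SE 0.13, adjusted p = 1.99e-10) and in PV by 1.90 (SE 0.13, adjusted p = 1.48e-09), and exceeded LA by 1.03 and 0.73 (adjusted p = 0.000105 and 0.00224). It was the 1 gene of the list higher in SA than in LA, where 6 were lower, and the 1 higher in PV than in LA, where also 6 were lower; over all genes 7.03% and 6.99% were higher and 8.26% and 6.51% lower. In PA Rdh10 differed by -0.25 from the other regions and did not pass (adjusted p = 0.0688).

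**Figure D5:**
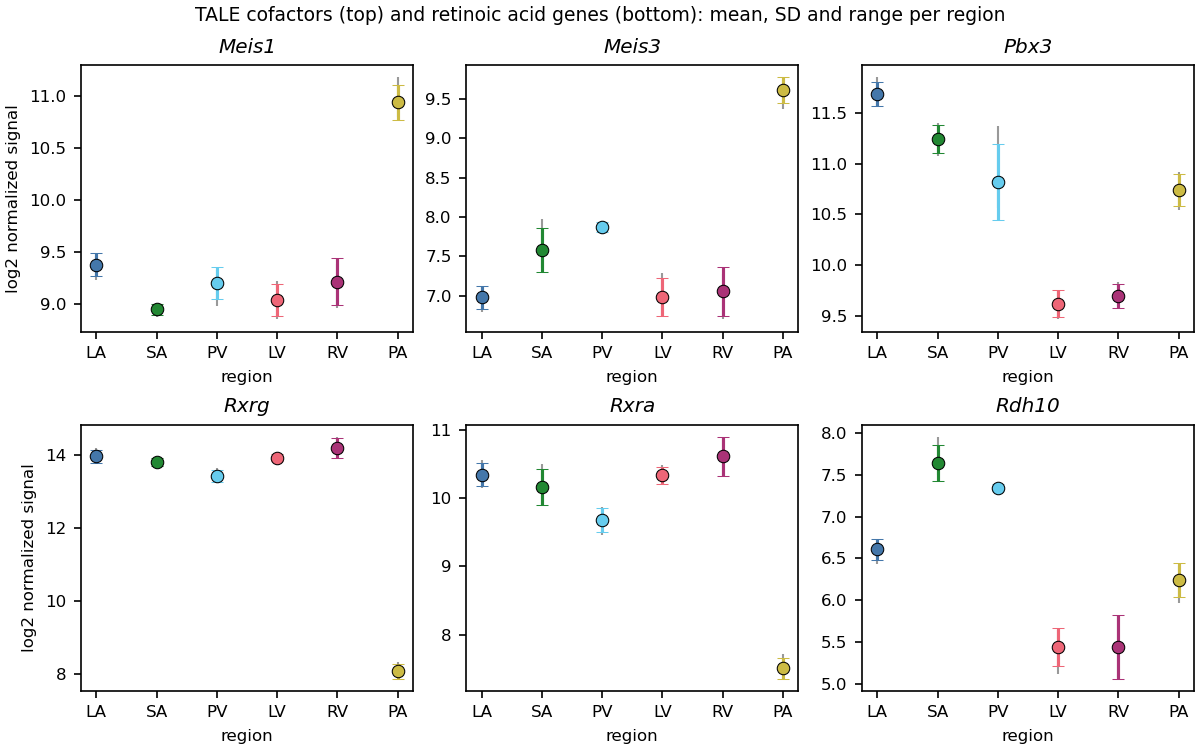
Each panel is 1 gene, with the region on the x axis and log2 normalized signal on the y axis (axes do not start at 0); points give means, coloured bars the SD and grey lines the range over 3 or 4 arrays. Meis1 and Meis3 are highest in PA, Pbx3 is lowest in V, Rxrg and Rxra are lowest in PA and Rdh10 is highest in SA and PV.

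Polycomb and trithorax proteins keep Hox genes off or on. Of 12 measured genes 9 differed, and in PA 6 were higher and 1 lower, so 7 passed where 59.1% of all genes did. Cbx6 was higher in PA by 1.56 (SE 0.07, adjusted p = 1.32e-13), Pcgf2 by 1.23 (SE 0.08, adjusted p = 2.14e-11) and Men1 by 0.79 (SE 0.06, adjusted p = 2.7e-10), while Cbx8 was lower by 0.98 (SE 0.07, adjusted p = 3.21e-10). Against LA, 4 of the 12 were lower in SA and none higher, where 8.26% of all genes were lower. Of these 4 calls, those of Pcgf2 and Men1 were each lost in 4 settings. Both were lost without SA replicate 3 and in a fit of only the arrays compared, Pcgf2 also without LA replicate 2 or 3 (adjusted p of 0.0558 to 0.0672 over the 4), and Men1 also without LA replicate 1 and with normexp (0.0504 to 0.0675). Of 6 other regulators, 2 differed among the regions, and in PA 2 were higher and 1 lower. Ctcf, which bounds the domains of the clusters, was higher in PA by 0.26 (SE 0.06, adjusted p = 0.00103).

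The genes that flank the clusters moved in both directions. Of 14 measured flanking genes 12 differed, and in PA 7 were higher and 5 lower. Beside Hoxa, Skap2 was higher in PA by 2.10 (SE 0.12, adjusted p = 5.59e-12) and Snx10 by 1.35 (SE 0.09, adjusted p = 5.95e-11), but Hibadh, an enzyme of valine breakdown, was lower by 1.88 (SE 0.07, adjusted p = 2.46e-15). Snx10 also exceeded V by 2.81 in LA, 2.08 in SA and 1.92 in PV (adjusted p = 1.77e-13, 1.12e-11 and 3.59e-11). Mtx2, a mitochondrial import gene beside Hoxd, was lower in PA by 1.92 (SE 0.10, adjusted p = 1.47e-12), where Hoxd9 was higher. Of 8 other homeobox genes only Meox2 and Meox1 differed. Meox2 was higher in SA than in LA by 1.03 (SE 0.24, adjusted p = 0.00679), and Meox1 was lower in SA than in V by 1.08 (SE 0.25, adjusted p = 0.00221). These lists were chosen with earlier results known, and their counts are descriptions.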

How the data were processed

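Total RNA was amplified into cRNA carrying the dye Cy3, which was hybridised to single-colour Agilent SurePrint G3 rat arrays. Per the file headers and the submitters' processing notes, the authors used Agilent Feature Extraction 11.0.1.1, and their methods give background subtraction, detrending and scaling to the 90th percentile. The deposited normalized intensity values are linear: each equals the array's processed signal times 1 factor (0.881 to 1.52, within 2% for 99.6 to 99.8% of probes). The deposited mark for spots well above background was used as a detection call; it is a 0 or 1 flag. Array number limits the precision. Probes with a missing value (156) were left out.

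Probe accessions were matched to RefSeq symbols without versions, and the highest probe per gene and array was taken. Values were log2(intensity + 1). Genes above 4 on at least 1 array (16089 of 16544) were fitted with limma 3.58.1 in R 4.3.3, 1 mean per region over all 23 arrays, with moderated F-tests and contrasts and Benjamini-Hochberg adjustment over all genes (threshold 0.05), two-sided. The script was tested on simulated data.

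Values are given for Hox genes detected on all arrays of at least 1 region with an F-test adjusted p below 0.05 (up to 12, by that p) and, per contrast, for up to 6 called genes without overlap, by size. Hoxa2 and Hoxb4 are named because the study lists them. In no contrast was the share of all genes without overlap counted, so a lack of overlap describes the named genes alone. Of each related list, up to 4 genes by F-test p are named. Other genes, such as Hoxa11, Hoxc8 and the marker genes given singly, were named after their values were seen. Some genes are counted but not reported here. The members and lists were chosen with earlier results of these data known. Alternatives were other scalings and background corrections, filters, pseudocounts, probe rules, blocks and leaving out each array. Replicate numbers were not used to pair arrays in the main fit. Of 55 same-numbered pairs of different regions, 12 had a correlation of deviations above 0.1 (range −0.38 to 0.34). The mean was -0.018 for the same number and 0.007 for different numbers, beside 0.080 within an array row and -0.074 between rows. These values cannot exclude that arrays of different regions share rats.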

Additional observations from a re-analysis of the deposited data

Results flagged for a closer look

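Among 50 groups of 4 arrays, covering the 10 Hox genes that passed a test, 4 held 1 array far from the other 3, and chance alone gives about 1 in 20. Hoxa2 in PV had replicate 3 at 8.39, below the 8.75 to 8.78 of the others. Hoxb9 in PA had replicate 4 at 4.65, not well above background, below 6.45 to 6.74. Hoxd1 in LA had replicate 2 at 5.96, below 6.31 to 6.35. Hoxd4 in LV had replicate 1 at 7.57, above 7.02 to 7.07.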

How the results depend on the processing

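Of 30 called differences of a Hox gene, 18 kept their direction and their side of the threshold in every setting with a test, and 12 lost the call in at least 1. Of the 12, 4 were Hoxb3 on its dim probe alone, which changed sign with −0.0244 for SA against LA and −0.0296 for PV against LA. The count for PV against V was 5 with normexp and 5 with the array row as a block, against 8. With normexp, 10 passed for LA against V and 5 for SA against LA, where 6983 and 4169 of all 16544 genes did. Normexp with its offset of 50 pulls dim genes together, left 16 of the 30 differences at under 1 / 1.5 of their size and moved the median of all genes to −0.19 for LA against V and 0.17 for SA against LA. Leaving out 1 array in turn gave 6 to 9 genes that differ among the regions, 6 to 8 for PA, 4 to 6 for SA against V, 4 to 8 for PV against V, 3 to 4 for LA against V, 3 for SA against LA, 3 to 4 for PV against LA and 0 for PV against SA and LV against RV. A replicate block gave 7 for the F-test, 7 for PA, 6 for SA against V, 7 for PV against V and no change elsewhere. With the array row as a block 6 genes passed the F-test. Hoxd1 in PA was also lost with scanner values scaled to equal 90th percentiles, normexp and a variance trend (adjusted p = 0.0569, 0.147 and 0.055). The replicate block removed the PV against V call of Hoxb9 (adjusted p = 0.0567), and 4 of 23 arrays were most like an array of their own number. In both array rows all 30 differences kept their direction, and within slides 29 did in every slide. Of the 69 called differences of the named list genes, tried after seeing the data, 53 passed in every setting and none reversed. Single probes, within-batch values and dim arrays at the lowest signal were also chosen after seeing the data. Names from a gene name column were not run, because the scanner output used here holds accessions only. Signals near background limit what can be said of 11 of the 25 genes, 10 of which were well above it only on some arrays and 1 on none.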
